A study of Homo sapiens with 10 samples.

Results

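The SLC25 genes encode a family of carrier proteins, most of them in the mitochondrial inner membrane. They were taken as the rows of the deposited expression table whose gene symbol is SLC25A followed by a number. These were 40 of the 13527 features of the table, and each carried the Ensembl identifier of a protein-coding gene. Of 48 such symbols listed by substrate, the other 8 have no row in the table and were not analysed here (SLC25A2, SLC25A27, SLC25A31, SLC25A34, SLC25A47, SLC25A48, SLC25A52 and SLC25A53). RNA-seq compared cells of DU145, a human line established from prostate cancer, carrying a short hairpin RNA that lowers SOX4 (shSOX4, 3 libraries) with DU145 carrying a scrambled hairpin (shCon, 3 libraries). Cells of both groups had no other treatment. SOX4 is a DNA-binding protein with an HMG box. The series concerns its role in neuroendocrine differentiation of prostate cancer. The sources used here do not say how many hairpins or clones a group stands for, nor whether its 3 libraries came from separate cultures.

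Carriers of this family are short proteins with a repeated membrane-spanning unit. Most exchange a metabolite of the matrix for another on the cytosolic side, or move it together with protons. ATP leaves the matrix through the ADP/ATP carriers, and the phosphate for its synthesis enters through SLC25A3. Other members move citrate and other acids of the tricarboxylic acid cycle, amino acids, acylcarnitines, nucleotides, cofactors and iron. In prostate epithelium, citrate handling has long been of interest because the normal gland secretes it.

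Total counts were 34784541, 31189910 and 34062819 in shSOX4 libraries 1, 2 and 3, and 43361609, 36360205 and 37012425 in shCon libraries 1, 2 and 3. SOX4 stood at 4.55, 6.44 and 6.01 CPM (the count as a share of the library, scaled by TMM, which balances library composition) in the shSOX4 libraries, against 12.9, 10.1 and 8.48 CPM in the shCon libraries. That left 53.9% of the shCon level by the fit (log2 fold change -0.89, SE 0.236, edgeR quasi-likelihood adjusted p = 0.0111). shCon 3 and shSOX4 1 stand apart from the other libraries of their groups, so the totals of called genes are also given without that pair. The 5 epithelial markers summed to 6813 to 7706 CPM in shSOX4 libraries and 2958 to 4388 CPM in shCon libraries. KRT8 and KRT18 made up most of that sum and rose (log2 fold changes 1.33 and 1.03, edgeR adjusted p = 3.98e-05 and 0.000406). CDH1 and EPCAM fell (-1.28 and -0.83, edgeR adjusted p = 0.0029 and 0.0279), and KRT19 was not called (-0.39), so the markers did not move together. Of 5 leukocyte and endothelial markers, PTPRC, CD3E, PECAM1 and VWF have no row. CD68, the remaining marker, had 44.1 to 52.1 CPM in shSOX4 libraries and 95.2 to 113 CPM in shCon libraries. Of 4 fibroblast markers, COL1A2 and DCN have no row, while COL1A1 and PDGFRB together summed to 7.38 to 12.3 CPM in shSOX4 libraries and 1.60 to 2.48 CPM in shCon libraries. The part of these markers in the carriers' values was not tested.

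At an adjusted p under 0.05 in the fit over all features, 5 members rose in shSOX4 cells and 6 fell, while 29 did not pass. SLC25A46, SLC25A12, SLC25A14, SLC25A20 and SLC25A13 were the members that rose. SLC25A41, SLC25A6, SLC25A37, SLC25A23, SLC25A15 and SLC25A21 were the members that fell. SLC25A41 met the deposited minimum of 1 CPM in at least 3 libraries through its higher shCon level alone. Its fall enters the counts and ranges below. The share called was 27.5% of members, against 32.8% of all features. For rises it was 12.5% against a background of 17.0%, and for falls 15% against 15.8%. When the log2 fold change had also to reach 1 in size, 2 members were called (5%), against 13.2% of all features. The carriers were therefore called no more often than the table as a whole. Without shCon 3 and shSOX4 1, 6 members were called higher and 7 lower, against a background of 40.9% for both directions together.

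The 40 fitted log2 fold changes (shSOX4 over shCon throughout) ran from -1.79 to 1.23 with a median of 0.02, against -0.01 over all features. In 28 members the change was under 0.5 in size, and 21 were positive and 19 negative. The median standard error was 0.215. Of the 29 members that were not called, 27 had a 95% interval that lay inside -1 to 1, so a doubling or halving lies outside those intervals. Levels in the 2 groups did not overlap for 12 members (30%, 6 higher and 6 lower in shSOX4), against 47.0% of all features. In bulk RNA, a lower level in every cell and a smaller share of cells with the transcript cannot be told apart. The calls covered 9 of the 14 classes, which include the class without an assigned substrate. No background was computed for this count. Only the aspartate and glutamate class and the ATP-Mg class held 2 called members each. In the ATP-Mg class, SLC25A41 was in the table only through its shCon level. Without shCon 3 and shSOX4 1, 10 classes held a call.

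**Figure D1:**
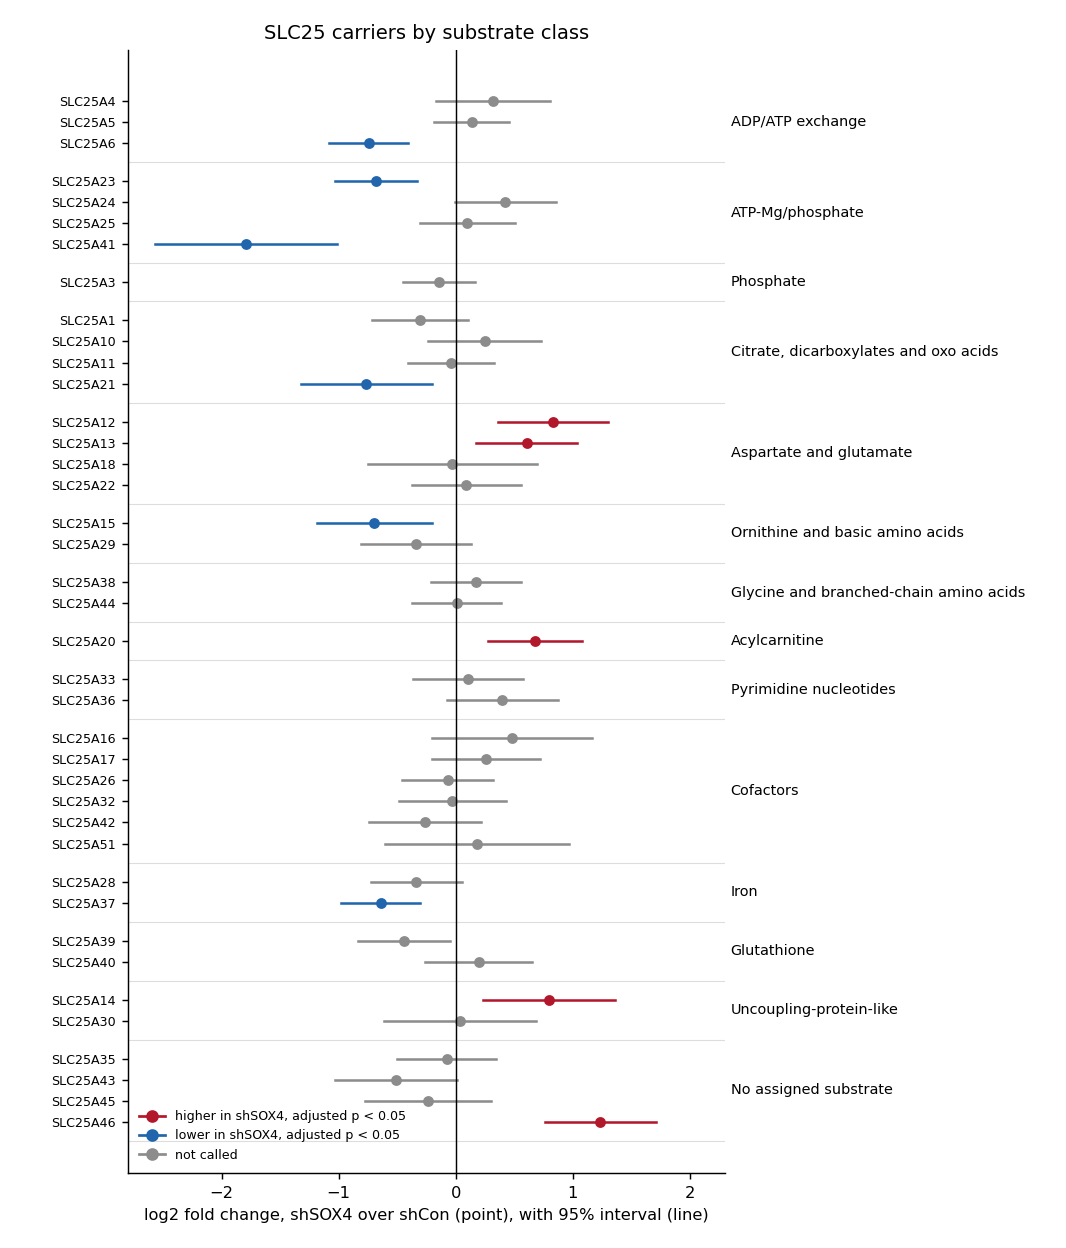
Fitted log2 fold change (shSOX4 over shCon, horizontal axis) of 39 of the 40 SLC25 members, grouped by substrate class, with 95% confidence intervals as bars and called members in colour. Changes run from -1.79 for SLC25A41 to 1.23 for SLC25A46, and most members lie within 0.5 of 0. SLC25A41 met the deposited minimum through its higher shCon level alone.

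Levels differed widely between members. By FPKM (fragments scaled to gene length and library size, which allows levels of different genes to be compared), SLC25A6 was highest with a mean of 561 over the 6 libraries. SLC25A3 followed with 425 FPKM, SLC25A5 with 379 FPKM, SLC25A39 with 238 FPKM and SLC25A1 with 115 FPKM. No other member reached 100 FPKM. SLC25A41, SLC25A18 and SLC25A16 were lowest, with 0.849, 0.601 and 0.450 FPKM. Together SLC25A3, SLC25A5 and SLC25A6 held 62.9 ± 2.07% of the summed FPKM of the 40 members in shSOX4 libraries and 63.9 ± 1.90% in shCon libraries (SD, n = 3 each). Members that fell had a median mean level of 26.3 FPKM, those that rose 5.52 FPKM and those not called 7.05 FPKM. Across the 40 members, the mean level and the log2 fold change had a Spearman correlation of -0.33 and a Pearson correlation of -0.21 on log2 FPKM. These describe genes of the same 6 libraries, which are not independent replicates.

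The ADP/ATP carriers exchange matrix ATP for cytosolic ADP, and 1 of the 3 measured members fell. SLC25A6 (ENSG00000169100), an isoform made in most tissues, had 1078, 846 and 871 CPM in shSOX4 libraries, against 1443, 1450 and 1787 CPM in shCon libraries. Every shSOX4 library lay below every shCon library. The mean was 932 ± 127 CPM in shSOX4 cells and 1560 ± 197 CPM in shCon cells (SD, n = 3 each), or 59.7% of the shCon level by the fit. Its log2 fold change was -0.74 (SE 0.157, 95% interval -1.08 to -0.41, edgeR adjusted p = 0.00302). The call held with each library left out in turn. SLC25A5, the isoform typical of dividing cells, had 487, 532 and 604 CPM in shSOX4 libraries and 495, 512 and 469 CPM in shCon libraries. Those groups overlapped, and the log2 fold change was 0.14 (95% interval -0.18 to 0.45, edgeR adjusted p = 0.507). SLC25A4, the isoform of heart and skeletal muscle, was low and was not called, with 13 ± 3.46 CPM in shSOX4 cells and 10.5 ± 1.27 CPM in shCon cells (SD, n = 3 each). SLC25A5 and SLC25A6 are close in sequence and have processed copies elsewhere in the genome, so how reads were divided among them is uncertain. SLC25A6 also lies in the region shared by the X and Y chromosomes.

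The summed level of the 3 ADP/ATP carriers was 833, 809 and 824 FPKM in shSOX4 libraries, against 1058, 1059 and 1072 FPKM in shCon libraries. The groups did not overlap, and their means were 822 ± 12.1 FPKM in shSOX4 cells and 1063 ± 8.01 FPKM in shCon cells (SD, n = 3 each). SLC25A6 made up 57.6, 49.4 and 46.9% of that sum in shSOX4 libraries and 64.2, 63.5 and 70.0% in shCon libraries. SLC25A5 made up 42.1, 50.3 and 52.6% in shSOX4 libraries and 35.6, 36.3 and 29.8% in shCon libraries. The shares of neither carrier overlapped between the groups. Within a library, the log2 ratio of SLC25A5 to SLC25A6 in CPM averaged -0.78 ± 0.324 in shSOX4 cells and -1.66 ± 0.235 in shCon cells (SD, n = 3 each). The difference was 0.88 with no overlap. An exact two-sided permutation test gave p = 0.1, the smallest that 3 against 3 libraries allow, and 0.333 after Benjamini-Hochberg adjustment over the 10 carrier pairs compared.

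**Figure D2:**
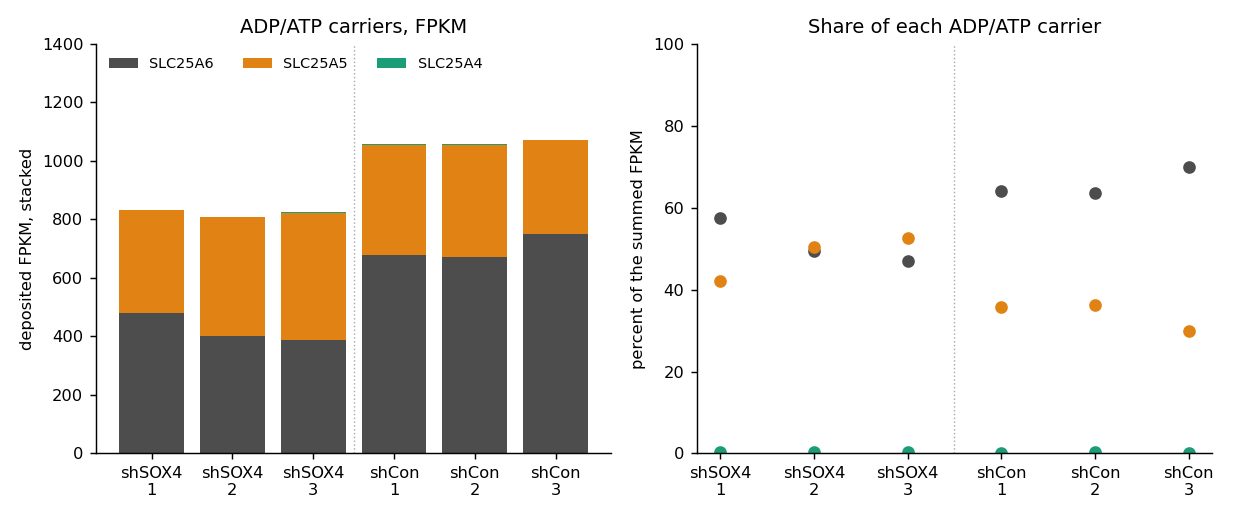
FPKM of the ADP/ATP carriers in each shSOX4 library and each shCon library, with the percentage of their sum that each carrier made up. The sum lies between 809 and 833 FPKM in the shSOX4 libraries and between 1058 and 1072 FPKM in the shCon libraries, and the share of SLC25A6 is lower in every shSOX4 library.

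Over all 40 members the summed FPKM averaged 1983 ± 80.5 in shSOX4 cells and 2324 ± 63.2 in shCon cells (SD, n = 3 each). SLC25A6 alone made up 81.4% of that difference of means. Without it the sum was 1586, 1506 and 1589 FPKM in shSOX4 libraries 1, 2 and 3 and 1598, 1628 and 1645 FPKM in shCon libraries 1, 2 and 3, which still did not overlap but differed far less.

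SLC25A3, which brings phosphate into the matrix, was not called. It had 803, 744 and 865 CPM in shSOX4 libraries and 860, 864 and 936 CPM in shCon libraries. The highest shSOX4 library lay above the lowest shCon libraries, and the log2 fold change was -0.14 (95% interval -0.45 to 0.16).

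The ATP-Mg/phosphate carriers adjust the adenine nucleotide content of the matrix, and most are gated by calcium. Of 4 measured members, 2 fell. SLC25A23 (ENSG00000125648), a calcium-binding carrier, had 98.5, 89.5 and 77.2 CPM in shSOX4 libraries, against 133, 131 and 161 CPM in shCon libraries. Again the groups did not overlap, with a log2 fold change of -0.68 (SE 0.165, edgeR adjusted p = 0.00698) that stayed called with each library left out. SLC25A41 (ENSG00000181240), a relative without the calcium-binding domain, had 0.469, 0.867 and 0.655 CPM in shSOX4 libraries, against 2.69, 2.04 and 2.16 CPM in shCon libraries. These rest on 16, 28 and 22 counts in shSOX4 libraries and 123, 76 and 74 counts in shCon libraries. The log2 fold change was -1.79 (SE 0.366, 95% interval -2.57 to -1.01, edgeR adjusted p = 0.00246). Every deposited feature has at least 1 CPM in at least 3 libraries, and SLC25A41 is the only member that met this through 1 group alone. It was therefore in the table only because its shCon level was high enough. SLC25A41 and SLC25A23 are neighbours whose annotated ends overlap in RefSeq. How the counting assigned reads in that stretch is not given, so reads there cannot be told apart.

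The other calcium-gated members of that class were not called. SLC25A24 had 16.2, 21.6 and 18.9 CPM in shSOX4 libraries and 14.7, 15.9 and 11.7 CPM in shCon libraries. Its groups did not overlap, but its interval reached 0 (log2 fold change 0.42, 95% interval -0.01 to 0.85, edgeR adjusted p = 0.12). SLC25A25 averaged 20.2 ± 3.13 CPM in shSOX4 cells and 18.9 ± 1.13 CPM in shCon cells (SD, n = 3 each). Within a library, the log2 ratio of SLC25A24 to SLC25A23 was -2.23 ± 0.326 in shSOX4 cells and -3.34 ± 0.395 in shCon cells (SD, n = 3 each). The groups did not overlap in this ratio (difference 1.11, exact permutation p = 0.1, adjusted 0.333).

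The aspartate/glutamate carriers of the malate-aspartate shuttle, which moves reducing equivalents of cytosolic NADH into the matrix, both rose. SLC25A12 (ENSG00000115840, also called aralar) had 16.7, 22.3 and 28.3 CPM in shSOX4 libraries, against 14.2, 12.9 and 10.9 CPM in shCon libraries. SLC25A13 (ENSG00000004864, also called citrin), which also serves the urea cycle in liver, had 20.8, 22.2 and 31.5 CPM in shSOX4 libraries, against 15.7, 17.3 and 16.0 CPM in shCon libraries. For neither gene did the groups overlap, and shSOX4 3 was the highest library for both. The log2 fold change was 0.83 for SLC25A12 (SE 0.220, edgeR adjusted p = 0.0114) and 0.61 for SLC25A13 (SE 0.203, edgeR adjusted p = 0.0335). Without shSOX4 3, SLC25A12 was no longer called, with a log2 fold change of 0.63 and an adjusted p of 0.0686. SLC25A13 kept its call in 2 of 6 fits with a library left out, losing it without shCon 1, shCon 2, shSOX4 2 or shSOX4 3, at log2 fold changes down to 0.41. It was also lost in limma on log2(FPKM + 1), at 0.51 and an adjusted p of 0.0558. The ratio of SLC25A13 to SLC25A12 overlapped between the groups (difference -0.22 log2, exact permutation p = 0.3).

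The glutamate carriers of the same class import glutamate with a proton, and neither was called. SLC25A22 averaged 31.8 ± 3.78 CPM in shSOX4 cells and 29.8 ± 9.05 CPM in shCon cells (SD, n = 3 each). SLC25A18 was near the lower limit of the table, with 1.44 ± 0.263 CPM in shSOX4 cells and 1.47 ± 0.212 CPM in shCon cells (SD, n = 3 each). Its 95% interval ran from -0.75 to 0.69.

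SLC25A46 (ENSG00000164209) had the largest rise of the family. It sits in the outer membrane, takes part in mitochondrial fission, fusion and lipid handling, and has no assigned substrate here. Its levels were 10.4, 12.9 and 13.3 CPM in shSOX4 libraries, against 6.22, 4.43 and 4.90 CPM in shCon libraries. The lowest shSOX4 library lay well above the highest shCon library, and the means were 12.2 ± 1.55 CPM in shSOX4 cells and 5.18 ± 0.927 CPM in shCon cells (SD, n = 3 each). The log2 fold change was 1.23 (SE 0.222, 95% interval 0.76 to 1.71, edgeR adjusted p = 0.00103), and the call held in each of the 18 alternatives run. The other measured members without an assigned substrate, SLC25A35, SLC25A43 and SLC25A45, were not called. Of these, SLC25A43 had 7.30, 9.97 and 12.5 CPM in shSOX4 libraries and 17.2, 14.2 and 10.8 CPM in shCon libraries, which overlap. It was called lower only in the fit without shCon 3, at -0.66 (edgeR adjusted p = 0.0471).

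Promoters of SLC25A46 and of the aspartate/glutamate carriers are shown because these genes carry the clearest rise and the only class in which more than 1 member rose. The choice was made after their values were seen. Each line holds the 250 bases before the annotated start, read 5′ to 3′ on the gene's strand from RefSeq's promoters of GRCh38.p14, a newer build than the hg19 of the submitters' processing notes. Capitals mark CACGTG, the E-box core. SLC25A46 lies at chr5:110738757-110739006 on the + strand, SLC25A12 at chr2:171894245-171894494 on the - strand and SLC25A13 at chr7:96322099-96322348 on the - strand.
SLC25A46: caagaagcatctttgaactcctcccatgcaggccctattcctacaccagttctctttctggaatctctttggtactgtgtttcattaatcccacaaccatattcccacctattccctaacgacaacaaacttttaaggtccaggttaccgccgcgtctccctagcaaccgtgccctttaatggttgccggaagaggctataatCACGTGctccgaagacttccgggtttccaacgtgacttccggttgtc
SLC25A12: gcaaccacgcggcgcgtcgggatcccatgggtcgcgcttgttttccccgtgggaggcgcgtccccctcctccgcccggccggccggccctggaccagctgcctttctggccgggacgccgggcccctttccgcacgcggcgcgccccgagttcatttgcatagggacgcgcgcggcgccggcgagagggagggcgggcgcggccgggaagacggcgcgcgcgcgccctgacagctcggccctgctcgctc
SLC25A13: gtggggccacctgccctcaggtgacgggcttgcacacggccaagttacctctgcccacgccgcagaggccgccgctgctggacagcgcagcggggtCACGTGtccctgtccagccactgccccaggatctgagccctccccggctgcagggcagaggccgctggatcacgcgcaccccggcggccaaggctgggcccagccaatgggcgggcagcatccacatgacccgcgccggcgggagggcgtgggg
The E-box begins 47 bases before the start in SLC25A46 and 154 bases before it in SLC25A13, and SLC25A12 holds none of the motifs searched. The SLC25A12 window is 77.2% G and C with 42 CpG, that of SLC25A13 is 73.6% with 21, and that of SLC25A46 is 48.8% with 11.

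Promoters were found for 33 of the 40 members. The motifs searched on both strands were AACAAAG and AACAATG (cores bound by SOX proteins), TGATGNAA (an ATF4 and C/EBP composite), TGACGT (the CRE core) and CACGTG. The E-box occurred in 7 of the 33 (21.2%), against 7.7% of all 27305 genes with an annotated promoter, expressed here or not. That background was not matched for expression or CpG content, and several motifs were searched. The excess is therefore not shown to be particular to the carriers. The members holding the E-box were SLC25A13, SLC25A26, SLC25A33, SLC25A36, SLC25A38, SLC25A46 and SLC25A51. Of these 7, 2 were called, beside 27.5% of the 40 members and 32.8% of all features. A link between the E-box and the changes was not tested. AACAAAG was in 1 member, SLC25A14 (3.0%, against 5.5% of genes), and AACAATG in 0 (against 3.5%). TGATGNAA was in 1 member, SLC25A11 (3.0%, against 3.9%), and TGACGT in 4 (12.1%, against 8.6%), none of them called. A match describes letters in the window and does not show binding.

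SLC25A20 (ENSG00000178537), the carnitine-acylcarnitine carrier that brings long-chain fatty acids into the matrix for oxidation, rose. It had 28.3, 33.9 and 33.2 CPM in shSOX4 libraries, against 17.2, 22.9 and 19.5 CPM in shCon libraries, with no overlap. The log2 fold change was 0.68 (SE 0.188, edgeR adjusted p = 0.0139), and the call was lost without shCon 1 or without shSOX4 2, at an adjusted p of up to 0.0724.

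Among the carriers of citrate, dicarboxylates and oxo acids, 1 of 4 passed the test. SLC25A1, which exports citrate for fatty acid and sterol synthesis, had 214, 170 and 148 CPM in shSOX4 libraries and 205, 179 and 274 CPM in shCon libraries. These overlap widely, and the log2 fold change was -0.31 (95% interval -0.72 to 0.11, edgeR adjusted p = 0.234). SLC25A11, the oxoglutarate/malate carrier of the malate-aspartate shuttle, averaged 151 ± 14.8 CPM in shSOX4 cells and 155 ± 28.8 CPM in shCon cells (SD, n = 3 each). SLC25A10, which exchanges malate or succinate for phosphate, had 85.9, 68.3 and 68.3 CPM in shSOX4 libraries and 48.0, 50.8 and 88.8 CPM in shCon libraries. shCon 3 alone lay above the shSOX4 libraries. With all libraries SLC25A10 was not called (log2 fold change 0.25, edgeR adjusted p = 0.423), and without shCon 3 it was called higher at 0.59 (adjusted p = 0.0191). In the fit without shCon 3, 28.9% of all features were called. SLC25A10 was called in no alternative that kept shCon 3. The log2 ratio of SLC25A1 to SLC25A10 averaged 1.25 ± 0.114 in shSOX4 cells and 1.85 ± 0.234 in shCon cells (SD, n = 3 each). It did not overlap between the groups (difference -0.60, exact permutation p = 0.1, adjusted 0.333).

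SLC25A21 (ENSG00000183032) carries oxoadipate and oxoglutarate, which link lysine and tryptophan breakdown to the tricarboxylic acid cycle. It had 33.0, 19.4 and 44.2 CPM in shSOX4 libraries, against 60.6, 61.8 and 41.7 CPM in shCon libraries. shSOX4 3 lay above shCon 3, so it was the only called member whose groups overlapped (log2 fold change -0.76, SE 0.261, edgeR adjusted p = 0.0369). In the deposited FPKM it had 17.6, 18.5 and 14.5 in shSOX4 libraries and 21.1, 21.2 and 12.9 in shCon libraries. The fit on log2(FPKM + 1) gave -0.09 with a limma adjusted p of 0.748. After library scaling its ratio of count to FPKM varied 2.74-fold between libraries, the widest of the 40 members, of which 24 stayed within 5%. The gene overlaps PAX9 in RefSeq. PAX9 had 8.42 ± 1.56 CPM in shSOX4 cells and 6.93 ± 0.534 CPM in shCon cells (SD, n = 3 each). It was not called (log2 fold change 0.28, edgeR adjusted p = 0.343). The part of this overlap in the values of SLC25A21 was not tested. The call of SLC25A21 was also lost with total-count scaling and without shCon 1, shCon 2 or shSOX4 2, where the log2 fold change reached -0.50.

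Among the carriers of ornithine and basic amino acids, 1 of 2 fell. SLC25A15 (ENSG00000102743), the ornithine/citrulline carrier of the urea cycle, had 8.27, 11.8 and 15.0 CPM in shSOX4 libraries, against 19.7, 20.9 and 16.2 CPM in shCon libraries. The groups did not overlap, though shSOX4 3 and shCon 3 were close. The log2 fold change was -0.70 (SE 0.230, edgeR adjusted p = 0.0318). It kept its call in 2 of 6 fits with a library left out, losing it without shCon 1, shCon 2, shSOX4 1 or shSOX4 2, where the adjusted p reached 0.102. It was also lost with total-count scaling. SLC25A29, a carrier of arginine and lysine, was not called, with 16.9 ± 2.46 CPM in shSOX4 cells and 21.4 ± 5.88 CPM in shCon cells (SD, n = 3 each).

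Mitoferrins bring iron into the matrix for heme and iron-sulfur clusters, and 1 of the 2 fell. SLC25A37 (ENSG00000147454, mitoferrin-1), known best from developing red cells, had 93.7, 85.0 and 103 CPM in shSOX4 libraries, against 157, 150 and 132 CPM in shCon libraries. No library of a group reached the other group. Its log2 fold change was -0.64 (SE 0.158, 95% interval -0.98 to -0.30, edgeR adjusted p = 0.0076), and the call was lost without shSOX4 2 (adjusted p = 0.0626). SLC25A28 (mitoferrin-2), the more widely expressed relative, had 31, 26.8 and 27.4 CPM in shSOX4 libraries and 32.1, 33.8 and 41.9 CPM in shCon libraries. Its groups did not overlap but it did not pass (log2 fold change -0.34, 95% interval -0.73 to 0.05, edgeR adjusted p = 0.166). The ratio of SLC25A37 to SLC25A28 overlapped (difference -0.31 log2, exact permutation p = 0.3).

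SLC25A14 (ENSG00000102078), an uncoupling-protein-like carrier, had 4.43, 5.79 and 7.5 CPM in shSOX4 libraries, against 3.48, 3.65 and 3.03 CPM in shCon libraries. The groups did not overlap, and the log2 fold change was 0.80 (SE 0.263, edgeR adjusted p = 0.0313). Among the called members it kept its call in the fewest fits with a library left out, 1 of 6, that without shSOX4 1, and the log2 fold change ran down to 0.60 with an adjusted p of up to 0.152. SLC25A30, the related carrier of kidney, was spread over 3.99 to 9.32 CPM in shSOX4 libraries and 4.66 to 7.75 CPM in shCon libraries and was not called.

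**Figure D3:**
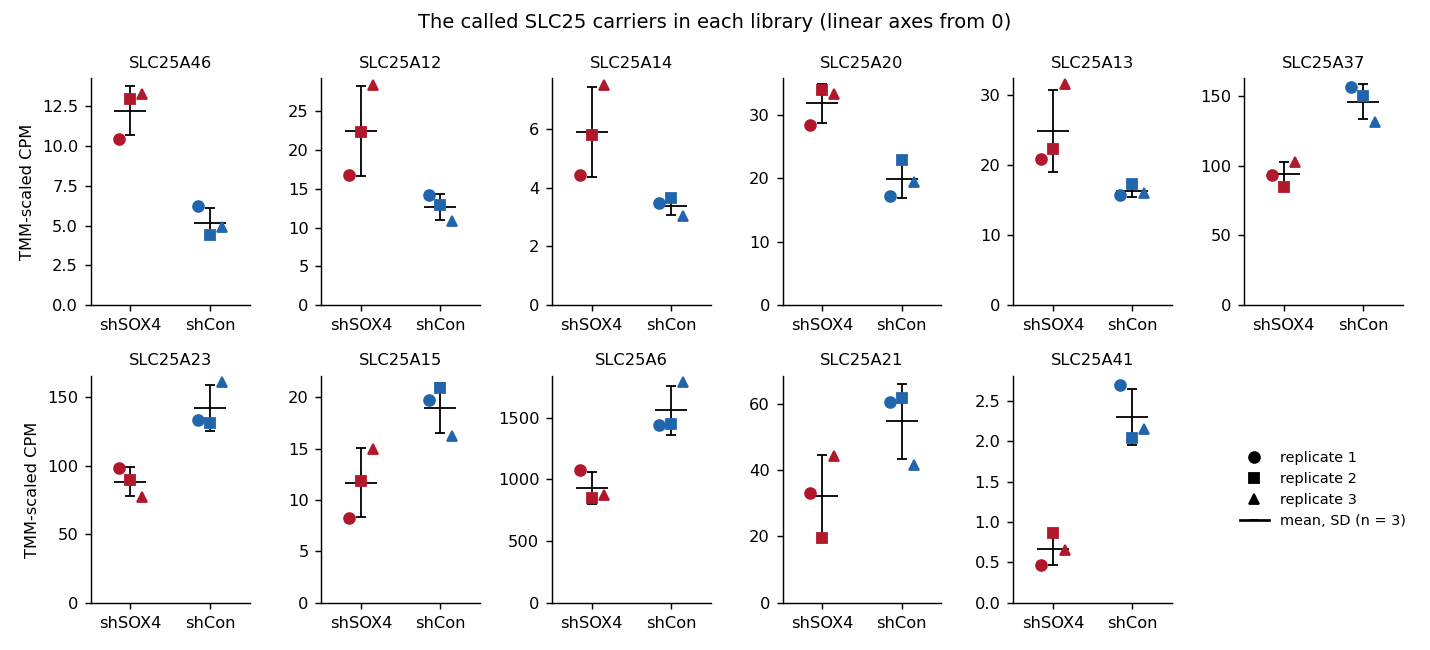
TMM-scaled CPM of the 11 called members in each library, with shSOX4 libraries to the left of shCon libraries and the group means marked. The groups overlap for SLC25A21 alone, where shSOX4 3 at 44.2 CPM lies above shCon 3 at 41.7 CPM.

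The remaining classes, grouped here because they hold no call, have 13 members; over all features 32.8% were called. SLC25A39, the glutathione carrier, was the nearest to the threshold. It had 390, 300 and 288 CPM in shSOX4 libraries and 377, 402 and 551 CPM in shCon libraries. shSOX4 1 lay above shCon 1, and the log2 fold change was -0.44 (95% interval -0.83 to -0.05, edgeR adjusted p = 0.076). It was called lower with total-count scaling (adjusted p = 0.048), without shSOX4 1 (adjusted p = 0.0212), and without shSOX4 1 and shCon 3 together (adjusted p = 0.0177). In the other alternatives it was not called. Its relative SLC25A40 had 12.1 ± 0.731 CPM in shSOX4 cells and 10.6 ± 2.24 CPM in shCon cells (SD, n = 3 each).

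The pyrimidine nucleotide carriers SLC25A33 and SLC25A36, which supply the matrix with nucleotides for mitochondrial DNA and RNA, had log2 fold changes of 0.11 and 0.40 and were not called. SLC25A38, needed for glycine import in heme synthesis, and SLC25A44, which imports branched-chain amino acids, were at 0.17 and 0.01. The 7 cofactor carriers ranged from -0.27 for SLC25A42, which carries coenzyme A, to 0.48 for SLC25A16. Between them lay SLC25A26 for S-adenosylmethionine at -0.07, SLC25A32 for folate or FAD at -0.03 and the peroxisomal SLC25A17 at 0.26. SLC25A51, which imports NAD, was at 0.19. It had 1.5, 4.92 and 4.14 CPM in shSOX4 libraries and 3.48, 2.98 and 2.80 CPM in shCon libraries. shSOX4 1 was the lowest library, and the 95% interval ran from -0.60 to 0.97.

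**Figure D4:**
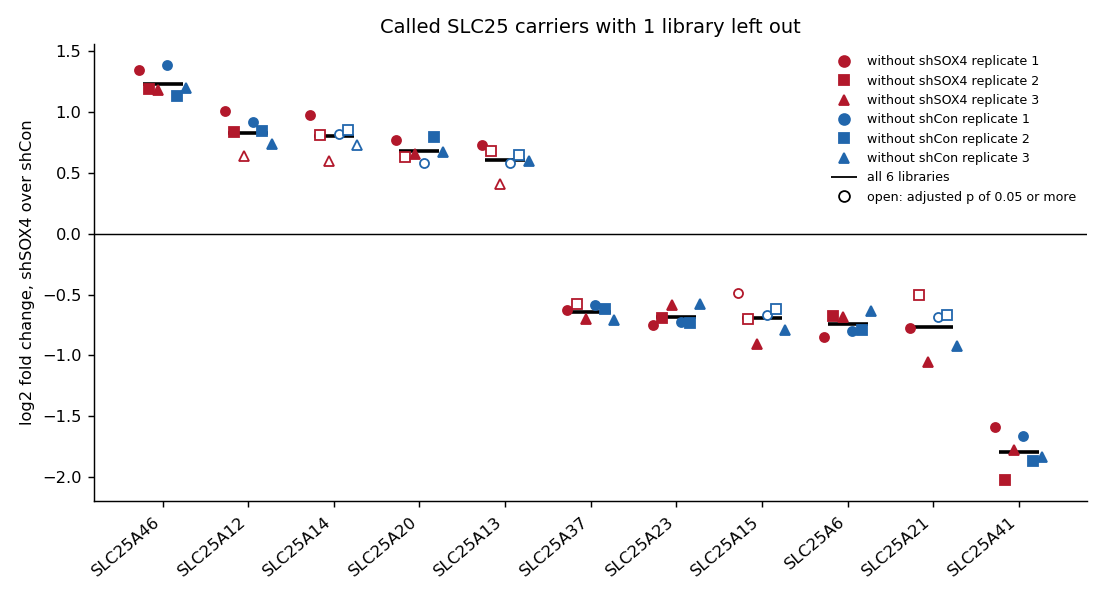
Log2 fold change (shSOX4 over shCon) of the 11 called members with all 6 libraries and with each library left out in turn, marked by whether the adjusted p stayed under 0.05. SLC25A46, SLC25A41, SLC25A6 and SLC25A23 keep their call in 6 of 6 fits, and SLC25A14 in 1 of 6. SLC25A41 met the deposited minimum through its higher shCon level alone, so its kept call is no independent sign of stability.

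The libraries shCon 3 and shSOX4 1 deviated together from the others of their groups across the carriers. In 35 of the 40 members both deviated in the same direction, 16 upward and 19 downward, and in 22 the mean deviation was at least 0.3 on the log2 scale. Over all features the deviations of this pair correlated at 0.49. The share of all features with the same direction was not computed, so the count is not shown to be particular to the carriers. SLC25A10 (0.59), SLC25A29 (0.49) and SLC25A1 (0.48) were the most raised in that pair of libraries. SLC25A51 (-0.90), SLC25A30 (-0.88), SLC25A43 (-0.57) and SLC25A15 (-0.50) were the most lowered. The labels, which describe more than 1 library kit without saying which libraries used which, name no batch that holds this pair. In the fit without this pair, SLC25A6 was at -0.75, SLC25A46 at 1.30, SLC25A12 at 0.91 and SLC25A37 at -0.71, and all 11 members stayed called. The pair was chosen because it stood apart in these same data. In that fit 40.9% of all features were called, against 32.8% with all libraries. The kept calls are therefore no test of the pair's part in the group differences, which was not tested.

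**Figure D5:**
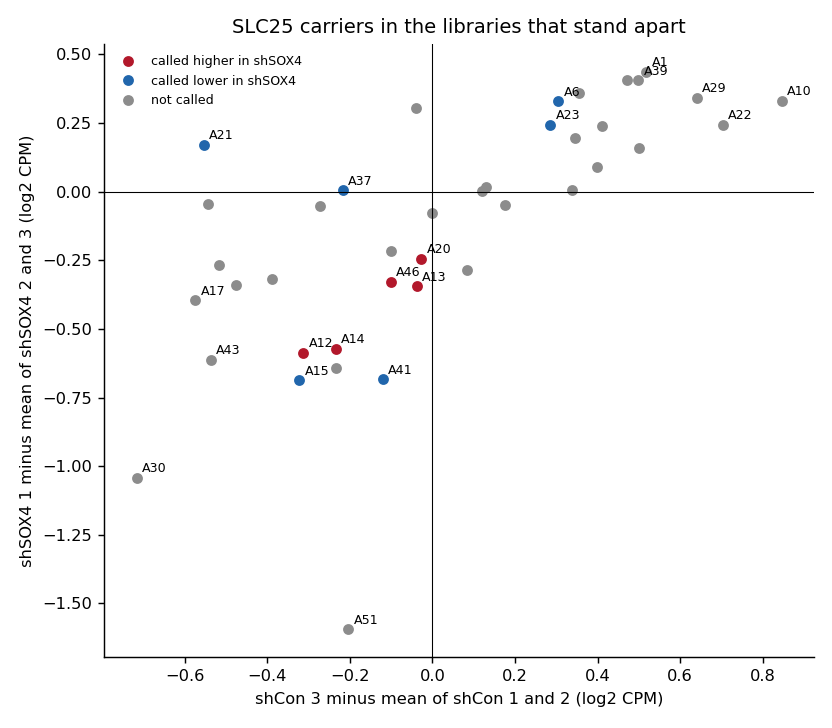
For each of the 40 members, the log2 deviation of shSOX4 1 from the other shSOX4 libraries and of shCon 3 from the other shCon libraries. In 35 members the deviations have the same sign, with SLC25A10 high in both and SLC25A51 low in both. Over all features the deviations of this pair of libraries correlated at 0.49.

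Genes that serve the carriers or share their membrane were read from lists chosen from textbook knowledge. Of 41 measured genes in 4 lists, 8 rose and 2 fell (24.4%, against 32.8% of all features), with a median log2 fold change of 0.12. Without shCon 3 and shSOX4 1 the counts were 14 and 4, in a fit where 40.9% of all features were called. Of the family members with other symbols, MTCH2, an outer-membrane protein that inserts tail-anchored proteins, rose with 177, 171 and 186 CPM in shSOX4 libraries against 116, 142 and 123 CPM in shCon libraries. Its log2 fold change was 0.49 (edgeR adjusted p = 0.0263), and the call was lost without shCon 1, shSOX4 2 or shSOX4 3. MTCH1 and UCP2 were not called, and UCP1 and UCP3 have no row.

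Of 19 other inner-membrane transport genes, 2 rose and 1 fell (15.8%, against 32.8% of all features). MPC1, a subunit of the mitochondrial pyruvate carrier, had 10.9, 14.7 and 15.4 CPM in shSOX4 libraries, against 5.10, 4.97 and 5.13 CPM in shCon libraries. Its log2 fold change of 1.43 (SE 0.215, edgeR adjusted p = 0.000275) was above that of any SLC25 member. The partner subunit MPC2 was not called at 0.41 (adjusted p = 0.0683). MICU3, a regulator of calcium uptake, was low, with 0.968, 0.743 and 1.22 CPM in shSOX4 libraries against 2.19, 2.12 and 1.75 CPM in shCon libraries (log2 fold change -1.05, edgeR adjusted p = 0.0318). Under 1 CPM in 2 of the shSOX4 libraries, it met the deposited table's minimum in all libraries of shCon alone, where it was higher, and genes low in both groups are not in the comparison. Its call held in 2 of 6 fits with a library left out, and was lost without shCon 1, shCon 2, shSOX4 1 or shSOX4 2.

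Metabolites reach the carriers through the outer-membrane pores, of which VDAC3 rose and VDAC1 and VDAC2 were not called. VDAC3 had 145, 192 and 237 CPM in shSOX4 libraries, against 126, 125 and 84.2 CPM in shCon libraries. Its log2 fold change was 0.78 (edgeR adjusted p = 0.0114), and the call was lost without shSOX4 3 (adjusted p = 0.0642).

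Carrier proteins are made in the cytosol and escorted across the intermembrane space by small TIM chaperones to the TIM22 insertase. Of 16 genes of this route, 4 rose and 1 fell (31.2%, against 32.8% of all features). The 4 that rose encode small TIM proteins. The other small TIM genes of the list, TIMM9 (log2 fold change 0.29, edgeR adjusted p = 0.277) and TIMM13 (0.41, adjusted p = 0.108), were not called, and their groups overlapped. TIMM8A had 19.7, 19.8 and 23.4 CPM in shSOX4 libraries, against 7.03, 7.66 and 7.73 CPM in shCon libraries (log2 fold change 1.49, edgeR adjusted p = 7.88e-05). TIMM8B had 234, 177 and 202 CPM in shSOX4 libraries, against 72.7, 114 and 106 CPM in shCon libraries (1.07, adjusted p = 0.00103). TIMM10 was at 132 ± 10.5 CPM in shSOX4 cells and 74.6 ± 10.9 CPM in shCon cells, and TIMM10B at 44.9 ± 1.27 CPM in shSOX4 cells and 25.9 ± 3.56 CPM in shCon cells (SD, n = 3 each). In none of the 4 called genes did the groups overlap, and their calls held with each library left out. TIMM29, a subunit of the TIM22 complex itself, fell to 13.6, 11.7 and 14.7 CPM in shSOX4 libraries, against 18.9, 21.3 and 26.2 CPM in shCon libraries (log2 fold change -0.73, edgeR adjusted p = 0.013). That call was lost without shSOX4 2 (adjusted p = 0.0821).

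In the authors' deposited table, 37.0% of all features and 11 of the 40 carriers had an adjusted p under 0.05. They were the same 11 members, 5 higher and 6 lower in shSOX4, with the same directions. The authors' values come from the same counts and are no independent measurement.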

How the data were processed

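Per the labels' protocols, poly-A RNA of the 6 libraries gave paired reads. The authors deposited, for each feature, whole-number counts that are not normalized and FPKM values, per the file headers. The deposited table also holds the authors' log2 fold change and adjusted p-value (false discovery rate), per the file headers. The tools named for RNA-seq and ATAC-seq together, per the submitters' processing notes, are Bowtie2, deepTools 2.07, STAR, MACS2 2.1.1 and HISAT2, with hg19 as the build. Not given in the sources used here are the counting program, its strand setting and the tool that made the authors' fold changes. Columns named NC and SH were read as shCon and shSOX4. The 4 ATAC-seq libraries were not used here.

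Counts were fitted over all 13527 features with edgeR 4.0.16 in R 4.3.3 (TMM, filterByExpr, which removed 0 features, quasi-likelihood F test, two-sided, group as the only term, Benjamini-Hochberg adjustment, threshold 0.05). Pair ratios used exact permutation over libraries. Libraries of a group differed by 28.7 to 139 chi-square per degree of freedom, so none repeats another. Because separate cultures are not stated, the spread behind the p-values is that of these libraries and may be technical. Total counts set the precision of low genes.

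Members, gene lists and tests were chosen with earlier results of these data known. All members enter every count; 2 genes are not reported here by name. Called members get values in every library, other members where a class or pair is described, and at most 6 called genes of each other list are named. Alternatives were DESeq2 1.42.0, limma-voom (limma 3.58.1), limma on log2(FPKM + 1) or log2(FPKM + 0.1) for genes with a mean of 1 FPKM or more, scaling by RLE or by total counts, filtering nothing or requiring 1 CPM in all libraries of a group, a replicate block, testing against 1.5-fold, dropping newGene loci, leaving out shCon 3 and shSOX4 1, and leaving out each library.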

Additional observations from a re-analysis of the deposited data

How the results depend on the processing

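The calls of SLC25A46 and SLC25A41 held in each alternative in which they were tested (SLC25A41 was under the FPKM limit in both FPKM fits, and it met the deposited minimum through its higher shCon level alone, so its fall is no independent sign of stability). Those of SLC25A6 and SLC25A23 held in all but the test against a 1.5-fold change, under which 1 member was higher, 1 lower, 2 classes had a call, 4 other transport genes were higher and 0 lower, and 782 features were higher and 413 lower, so that 65.4% of calls were rises, against 51.8% in the reported fit. DESeq2 called 4 other transport genes lower, and each FPKM fit called 1. The fit on log2(FPKM + 0.1) called 1479 features higher. Without shCon 3 and shSOX4 1, the median of the members was 0.0858, and 14 other transport genes were higher and 4 lower. In that fit 40.9% of all features were called. Leaving out each library gave 2 to 5 members higher and 3 to 7 lower, a median of 0.00444 to 0.0717, 4 to 9 classes with a call, 0 to 3 other transport genes lower, 1411 to 2653 features higher and 1098 to 2313 lower. The lowest counts of features were without shSOX4 2; the cause was not tested.

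The labels do not say whether libraries with the same replicate number share a batch. Deviations of same-numbered libraries from their group means correlated at -0.29, 0.16 and -0.29, while shSOX4 1 and shCon 3 correlated at 0.49. With 3 libraries in a group, these values cannot decide whether the numbers mark pairs. With the replicate block, 3 members were higher and 6 lower, SLC25A13 and SLC25A14 losing their calls. The block called 1 other transport gene lower and 3374 features in all.

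Signs changed only for members near 0 that were not called, and for 1 pair. Leaving out each library gave -0.16 to 0.11 for SLC25A11, -0.18 to 0.0880 for SLC25A18, -0.0631 to 0.37 for SLC25A22, -0.00720 to 0.21 for SLC25A25, -0.17 to 0.0283 for SLC25A26, -0.24 to 0.32 for SLC25A30, -0.19 to 0.10 for SLC25A32, -0.0832 to 0.30 for SLC25A33, -0.19 to 0.0537 for SLC25A35, -0.0854 to 0.11 for SLC25A44, -0.13 to 0.56 for SLC25A51 and -0.0176 to 0.39 for the SLC25A22 to SLC25A18 ratio. SLC25A30 was at -0.0214 with limma-voom and -0.00900 with the block. SLC25A26 was at 0.00297 or 0.00296 and SLC25A3 at 0.0110 in both FPKM fits, and SLC25A51 at -0.00647 with the smaller pseudocount. SLC25A44 was at -0.000379 without newGene loci, and SLC25A11 at 0.0245 without shCon 3 and shSOX4 1. The standard errors were largest for SLC25A51 (0.367), SLC25A41 (0.366), SLC25A18 (0.337) and SLC25A16 (0.320).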

Other observations

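TOMM6, a small subunit of the outer-membrane import pore, was the most uneven gene of the import list. It had 22.8, 11.2 and 220 CPM in shSOX4 libraries and 17.3, 118 and 3.99 CPM in shCon libraries, and was not called (edgeR adjusted p = 0.521).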
